A study of Mus musculus with 36 samples.

Results

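The dopamine neurons of the mouse olfactory bulb lie mostly around the glomeruli, and 5 genes that build, load, recover or specify their transmitter were described in all 36 libraries of the series. The genes were taken from a list by symbol: Th, Ddc, Slc6a3, Slc18a2 and Nr4a2, 5 of the 24502 genes with values in every library. Transcript entries were mapped to gene symbols and their FPKM (read fragments for each kilobase of a transcript, relative to all mapped fragments) were summed by gene. The libraries came from the olfactory bulb (OB), the vomeronasal organ (VNO) and the main olfactory epithelium (MOE) of C57BL/6 mice at 6 months of age, weaned at 3 weeks and kept 4 per cage. Each tissue had 3 libraries of each of 4 groups: sex-separated females (SF) and males (SM), in cages and rooms of one sex, and sex-combined females (CF) and males (CM), with 2 of each sex in a cage. The housing was meant to withhold or provide the odors of the opposite sex over a long period. The study's methods report litters in the sex-combined cages, with the pups killed within a day of birth. Mating, pregnancy and birth therefore went with sex-combined housing and cannot be told apart from odor contact. A library held RNA pooled from several mice (2 per pool in the series description and 3 in the study's methods), and no source says whether the 3 tissues of a like-numbered pool came from the same mice. The tissues were taken whole, so fewer cells of a type and less RNA per cell cannot be told apart, and the data do not place a transcript in periglomerular cells.

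Dopamine is made from tyrosine by tyrosine hydroxylase (Th), the rate-limiting enzyme, and by aromatic L-amino acid decarboxylase (Ddc). The vesicular monoamine transporter (Slc18a2) loads it into synaptic vesicles, and the dopamine transporter (Slc6a3) takes it up again from outside the cell. Nr4a2 (Nurr1) is an orphan nuclear receptor needed for dopamine neurons of the midbrain and also an immediate early gene. In the bulb, dopamine is made by GABAergic juxtaglomerular cells that are renewed in adult life, and their Th is known to fall when the input from olfactory sensory neurons is lost.

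The promoters are shown because Th is known to be regulated through short elements near its start, and because 1 of the 2 annotated starts of Ddc carried no signal here. Sequences are the RefSeq entries on GRCm38.p6, found for all 5 genes, and run from 250 bases before the start to 10 after it, 5′ to 3′ on the gene's strand. The motifs searched on both strands were TGACGTCA (CRE, the element bound by CREB), TGANTCA (AP-1, bound by Fos and Jun), AAAGGTCA (NBRE, bound by the Nr4a receptors), GCGNGGGCG (EGR, bound by the Egr factors) and, as the box of core promoters (TATA), the letters TATAAA. Capitals mark a match to one of them.
Th, chr7:142899986-142900245, minus strand: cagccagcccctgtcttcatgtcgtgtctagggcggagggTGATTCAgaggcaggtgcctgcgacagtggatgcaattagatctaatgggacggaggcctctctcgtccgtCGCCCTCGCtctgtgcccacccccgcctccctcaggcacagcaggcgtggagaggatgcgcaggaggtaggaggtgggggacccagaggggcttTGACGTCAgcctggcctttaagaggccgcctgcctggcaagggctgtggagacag
Slc18a2, chr19:59260628-59260887, plus strand: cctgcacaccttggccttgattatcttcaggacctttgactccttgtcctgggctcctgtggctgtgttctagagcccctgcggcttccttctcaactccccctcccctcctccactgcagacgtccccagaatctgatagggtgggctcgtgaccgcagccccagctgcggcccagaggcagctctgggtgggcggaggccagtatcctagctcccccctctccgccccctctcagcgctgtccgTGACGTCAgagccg
Nr4a2, chr2:57123994-57124253, minus strand: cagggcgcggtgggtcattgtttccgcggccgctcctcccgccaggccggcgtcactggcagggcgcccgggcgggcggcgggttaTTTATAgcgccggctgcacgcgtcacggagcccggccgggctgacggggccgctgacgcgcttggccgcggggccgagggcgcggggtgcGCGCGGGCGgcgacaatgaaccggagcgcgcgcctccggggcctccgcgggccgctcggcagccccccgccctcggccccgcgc
Ddc, upstream start, chr11:11898135-11898394, minus strand: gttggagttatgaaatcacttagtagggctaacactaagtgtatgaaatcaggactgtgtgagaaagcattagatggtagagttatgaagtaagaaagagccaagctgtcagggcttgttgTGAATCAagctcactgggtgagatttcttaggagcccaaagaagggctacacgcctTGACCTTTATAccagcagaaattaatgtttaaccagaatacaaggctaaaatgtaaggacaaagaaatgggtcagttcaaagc
Ddc, downstream start, chr11:11890399-11890658, minus strand: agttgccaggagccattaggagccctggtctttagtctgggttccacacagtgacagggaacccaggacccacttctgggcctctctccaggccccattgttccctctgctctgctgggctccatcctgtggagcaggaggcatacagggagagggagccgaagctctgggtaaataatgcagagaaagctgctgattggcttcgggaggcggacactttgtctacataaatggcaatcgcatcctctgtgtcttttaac

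The Th promoter held the CRE at -45 from the start, AP-1 at -210 and EGR on the opposite strand at -139. The CRE also occurred in the Slc18a2 promoter, at -4 and across the start. Nr4a2 had EGR at -74 and TATA on the opposite strand at -164, and 81.7% of its 300 searched bases (250 before and 50 after the start) were G or C. The upstream Ddc promoter held AP-1 at -129, and on the opposite strand NBRE at -73 and TATA at -68, which overlap. None of these letters occurred in the downstream Ddc window or in that of Slc6a3. Among 32851 promoters of the same length, CRE occurred in 1.79%, NBRE in 1.51%, EGR in 5.55%, AP-1 in 7.81% and TATA in 13.6%. A match is a string of letters and no evidence of binding, which was not measured.

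The deposited loci, on mm9, placed Th at chr7:150078681-150085871, Slc6a3 at chr13:73674195-73716120, Slc18a2 at chr19:59335368-59370502 and Nr4a2 at chr2:56959637-56976414, each span covering the whole gene with exons and introns. Ddc had 2 transcript entries that share their end at chr11:11714104 and start at 11798147 or 11790411. The entry with the upstream start was listed at 0 in all 36 libraries, so that all Ddc FPKM belonged to the entry with the downstream start. The reads of Nr4a2 were split between 2 entries in a way that varied between libraries: the longer one ranged from 0 to 1.67 FPKM in OB and was listed at 0 in 6 of 12 libraries, and the shorter one ranged from 0.524 to 2.38. The longer entry averaged 0.376 FPKM in OB and the shorter one 1.38. They start at 56976414 and 56967449, whereas the promoter shown for Nr4a2 covers a single start. Which of the 2 entries uses that start was not checked across the builds. Their sum was used.

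Estimated fragments on the listed transcripts, derived from the confidence limits of each FPKM, ranged from 3016524 to 5902159 in MOE, 3373400 to 6779893 in VNO and 3592962 to 6437263 in OB. No pair of libraries held identical values. The markers of each tissue stood where the labels put them: the summed FPKM of 6 olfactory sensory neuron genes was 996 to 1746 FPKM for MOE, 96.2 to 142 for VNO and 38.0 to 55.6 for OB, and that of 6 bulb interneuron genes was 28.8 to 52.1, 154 to 205 and 516 to 684. The sum of 5 vomeronasal sensory neuron genes was 15.6 to 21.5 in MOE, 94.0 to 120 in VNO and 34.0 to 42.0 in OB. In OB this sum was mostly Gnai2 (mean 26.8 FPKM) and Gnao1 (11.3), with Trpc2 at 0.199 and Vmn1r51 at 0.00603. The interneuron sum in VNO was mostly Calb2 (177), with Gad2 at 0.0609 and Slc32a1 at 0.0114. These sums are therefore not levels of the named cells in those tissues.

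All 5 genes were highest in OB. Tissues were compared in 1 limma fit of log2(FPKM + 0.5) over the 36 libraries and 14596 genes, with Benjamini-Hochberg adjustment over all genes and a threshold of 0.05. All 5 were higher in OB than in MOE, where 39.3% of all genes tested passed in that direction, and all 5 were higher in OB than in VNO, where 48% did. The median over all genes was -0.07 for OB minus MOE, 0.12 for OB minus VNO and -0.15 for VNO minus MOE on the log2 scale. Th stood far above the other members, while Slc18a2 and Nr4a2 were also well measured in VNO.

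**Figure D1:**
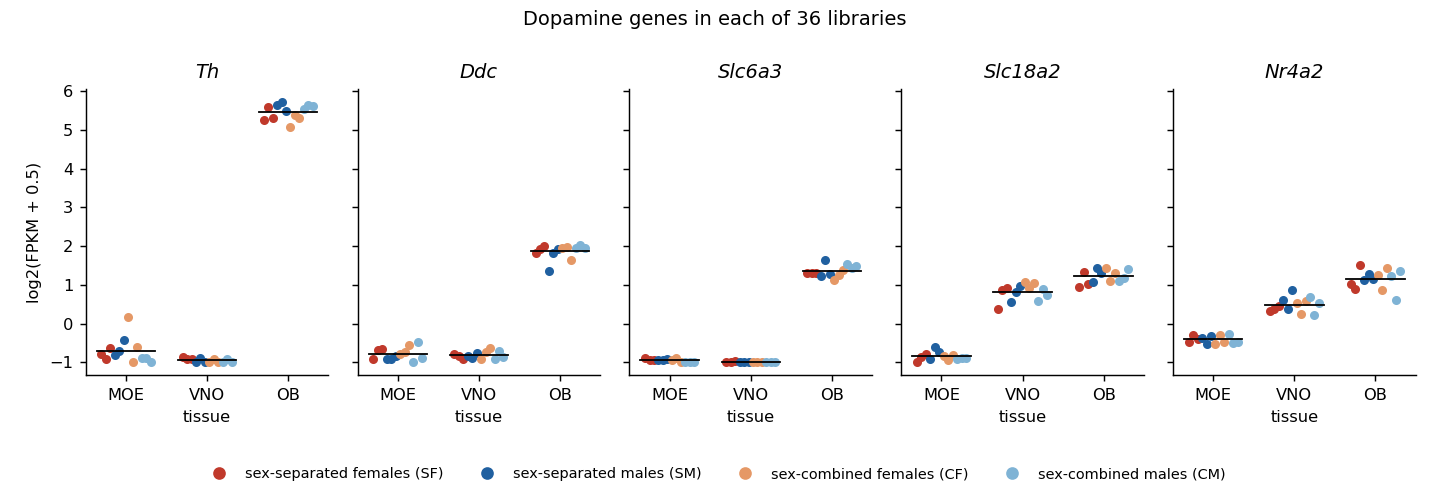
Each point is 1 library, placed by tissue and colored by group, with log2(FPKM + 0.5) on the vertical axis and the mean of 12 libraries as a line. Th reaches 33.2 to 52.4 FPKM in OB and lies near the bottom of the scale in MOE and VNO, whereas Slc18a2 and Nr4a2 rise in steps from MOE through VNO to OB.

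Th averaged 44.1 ± 5.80 FPKM in OB (SD, n = 12). Its level exceeded the mean FPKM of 97.8% of all 24559 genes kept there, including those at 0. Each OB library held an estimated 843 to 1590 Th fragments. In VNO, Th was listed at 0 in 6 of 12 libraries and rested on about 1 fragment in each of the others, with 0.0478 FPKM as the highest value. In MOE it ranged from 0 to 0.633 FPKM around a median of 0.0764, and 7 of 12 libraries were under the floor of 3 fragments. The log2 difference was 6.17 ± 0.0816 for OB minus MOE (SE; limma adjusted p = 1.46e-32) and 6.42 ± 0.0816 for OB minus VNO (limma adjusted p = 5.26e-33), both limited by the pseudocount since Th was near 0 in the epithelia. All OB libraries lay above all MOE and VNO libraries, whereas those of MOE and VNO overlapped.

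The small Th signal of MOE was largest in 1 library. MOE-CF replicate 1 reached 0.633 FPKM from 14 fragments, against at most 0.242 in the other 11. The same library also had the highest MOE values of Gad1 (0.641 FPKM; at most 0.447 in the others), Gfap (0.423; 0.343) and Slc17a7 (0.308; 0.234), which are neuronal or glial genes abundant in OB. Tbx21, a factor of mitral and tufted cells of the bulb, was 0.0936 FPKM there and ranked 2nd, below 0.130 in another MOE library. The part of bulb RNA in the Th value was not tested. Th was lower in VNO than in MOE by 0.25 on the log2 scale (SE 0.0816; limma adjusted p = 0.00702), and without MOE-CF replicate 1 by 0.16 (limma adjusted p = 0.00953), in a comparison where 48.6% of all genes were lower in VNO.

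Ddc averaged 3.17 ± 0.441 FPKM in OB, while the level of Th per length was 13.9 times as high. In MOE and VNO it averaged 0.0875 and 0.0705 FPKM, from fewer than 5 estimated fragments in every library. OB was higher than MOE by 2.64 ± 0.0668 on the log2 scale and higher than VNO by 2.68 ± 0.0668 (limma adjusted p = 2.18e-25 and 1.52e-25). VNO minus MOE was -0.04 (limma adjusted p = 0.613), a difference whose 95% interval extended 0.14 to either side.

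Slc6a3 averaged 2.08 ± 0.278 FPKM in OB. In VNO, 11 of 12 libraries were listed at 0 and the other held 1 fragment, and in MOE the 12 libraries together held an estimated 10.98 fragments. OB minus MOE was 2.31 ± 0.0454 and OB minus VNO 2.36 ± 0.0454 (limma adjusted p = 3.06e-28 and 1.90e-28). VNO minus MOE was -0.05 (limma adjusted p = 0.353). No library of either epithelium reached 3 fragments, the floor, which corresponds to 0.0527 to 0.0663 FPKM in MOE.

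Slc18a2 followed another order. It averaged 1.85 ± 0.273 FPKM in OB, 1.27 ± 0.246 in VNO and 0.0574 ± 0.0435 in MOE, and OB exceeded VNO by only 1.45 times. The VNO libraries ranged from 0.808 to 1.60 FPKM and the OB libraries from 1.42 to 2.19, so that the tissues overlapped. The difference between OB and VNO was 0.41 ± 0.0691 on the log2 scale (limma adjusted p = 3.22e-06), and it was 0.17 after upper quartile scaling and 0.63 after quantile normalization (limma adjusted p = 0.0105 and 1.50e-10). VNO was higher than MOE by 1.66 ± 0.0691 (limma adjusted p = 2.64e-19), and so was Nr4a2, in a comparison where 34% of all genes were higher in VNO.

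Slc18a2 serves all monoamine cells. In VNO, Th, Ddc and Slc6a3 averaged 0.0179, 0.0705 and 0.00132 FPKM, and Nr4a2 0.914 FPKM. Mast cells also carry the gene. Of 7 mast cell markers, the proteases Cma1, Mcpt4, Tpsb2 and Cpa3 averaged 4.09, 2.76, 2.54 and 2.51 FPKM in VNO, against 0.235, 0.244, 0.188 and 0.194 in MOE and at most 0.0568 in OB. Tpsab1 was 0.153 FPKM in VNO, Kit was highest in OB (2.07) and Hdc, which makes histamine, was highest in MOE (15.1 FPKM; 8.54 in VNO). The summed level of the 7 markers was 16.7 to 25.7 in VNO, 10.6 to 19.8 in MOE and 1.89 to 3.10 in OB. Of the noradrenergic markers, Slc6a2 averaged 0.379 FPKM in VNO, Dbh 0.00777 and Hand2 0.0142, and Phox2a was at 0 in all 12 libraries. The 3 serotonergic markers Tph2, Fev and Slc6a4 summed to 0.0595 to 0.343 in VNO, 0.0242 to 0.208 in MOE and 0.0880 to 0.210 in OB. The part of these cells in the Slc18a2 level was not tested.

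Nr4a2 averaged 1.75 ± 0.384 FPKM in OB, 0.914 ± 0.185 in VNO and 0.256 ± 0.0518 in MOE, or 6.84 times as much in OB as in MOE and 3.57 times as much in VNO as in MOE. All 3 steps passed the test: OB minus MOE was 1.56 ± 0.0852 on the log2 scale, OB minus VNO 0.66 ± 0.0852 and VNO minus MOE 0.90 ± 0.0852 (limma adjusted p = 1.05e-16, 2.88e-08 and 8.85e-11). Each VNO library lay above every MOE library, whereas the lowest OB library (1.04 FPKM) lay below the highest VNO library (1.31). Its range in OB, 2.29-fold from the lowest to the highest library, was the widest of the 5 members.

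In order of level within OB, Th was followed by Ddc, Slc6a3, Slc18a2 and Nr4a2. The mean FPKM of Th was 21.2 times that of Slc6a3, 23.8 times that of Slc18a2 and 25.2 times that of Nr4a2. The neighbors Slc6a3, Slc18a2 and Nr4a2 overlapped in their libraries (1.67 to 2.64, 1.42 to 2.19 and 1.04 to 2.38 FPKM), and Ddc (2.05 to 3.57) overlapped with Slc6a3. The coefficient of variation over the 12 OB libraries was 13.2% for Th, 13.4% for Slc6a3, 13.9% for Ddc, 14.7% for Slc18a2 and 21.9% for Nr4a2. The Nr4a2 value was above that of 91.2% of the 12774 genes tested in OB, and the Th value above that of 65.3%.

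Within OB, the study's question was whether females and males differ and whether contact with the other sex changes that difference. No member passed the threshold in either sex comparison, in the comparison of the housings or in the interaction. Th had the lowest unadjusted p, with females below males under both housings. The values per library follow, in FPKM and in the order of replicates 1 to 3.

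Th was 37.9, 47.7 and 39.2 in SF and 49.2, 52.4 and 44.4 in SM, with an overlap between 1 SF library and the SM range. In CF it was 33.2, 41.4 and 39.4, and in CM 45.8, 49.5 and 48.7, so that all 3 CF libraries lay below all 3 CM libraries. Group means were 41.6 ± 5.29 in SF, 48.6 ± 4.05 in SM, 38.0 ± 4.28 in CF and 48.0 ± 1.94 in CM (SD, n = 3).

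SF minus SM was -0.23 ± 0.116 on the log2 scale for Th (limma adjusted p = 1). CF minus CM was -0.34 ± 0.116, with an unadjusted p of 0.0123 from limma and an adjusted p of 0.835. The interaction was 0.11 with a 95% interval of 0.36 to either side, so that the sex difference was not shown to depend on housing. Averaged over both housings, a comparison added after the values were seen, Th was lower in females by 0.28 ± 0.0823 (unadjusted p = 0.00444 and adjusted p = 0.652 in limma, 0.0626% of all genes called). The median over all genes was -0.05 in this comparison, and Th ranged from -0.33 to -0.21 over the alternative settings. For SF minus SM the median over all genes was -0.07, and Th ranged from -0.33 to -0.16. With library weights, CF minus CM of Th passed the threshold at -0.38 (limma adjusted p = 0.0339), while the number of genes called in that comparison rose from 6 to 682.

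The shares of all genes called in OB were 0.0391% for SF minus SM, 0.047% for CF minus CM, 0.00783% for the interaction and 0.00783% for sex-combined minus sex-separated. CF lay wholly below CM for Th and Slc6a3, 2 of 5 members, where 7.12% of all genes did so. SF lay wholly below SM for 0 of 5 members, where 7.94% of all genes did, and no member's female libraries lay wholly above the male ones.

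**Figure D2:**
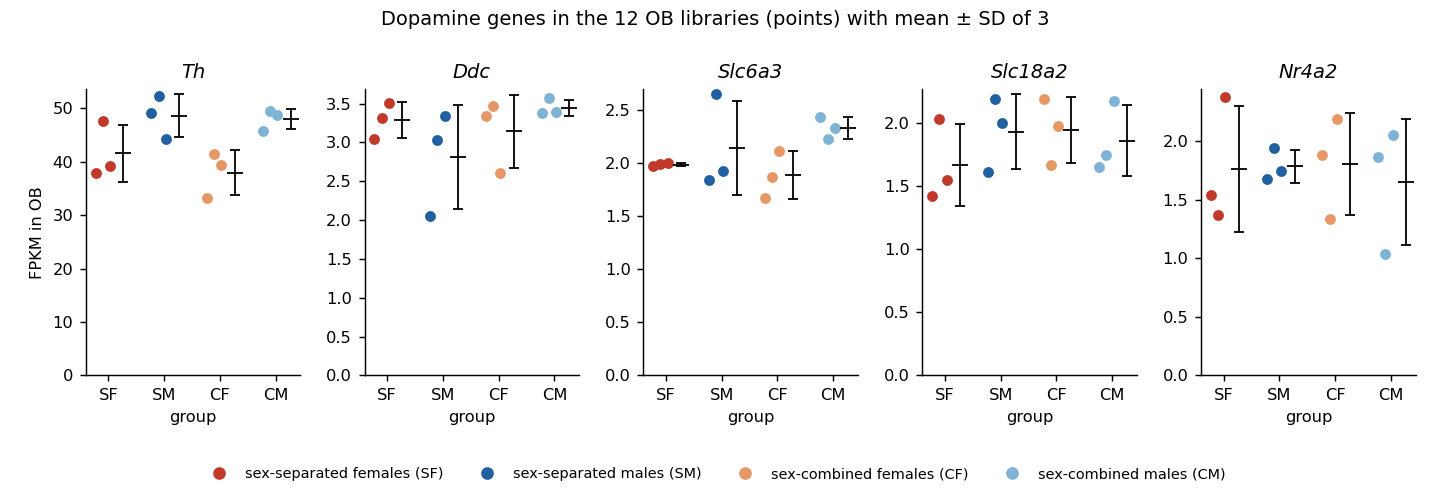
FPKM of the 5 genes in the 12 OB libraries, with each group's 3 libraries as points and its mean ± SD beside them, on axes that start at 0. The CF points of Th and of Slc6a3 lie below all CM points, and the groups of the other 3 genes overlap.

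Ddc did not share the direction of Th in the sex-separated mice. It was 3.05, 3.31 and 3.51 FPKM in SF and 2.05, 3.03 and 3.34 in SM, where replicate 1, the OB library with the fewest estimated fragments, was the lowest of all 12. In CF it was 3.35, 3.48 and 2.60, and in CM 3.38, 3.57 and 3.39. SF minus SM was 0.22 ± 0.141 and CF minus CM -0.12 ± 0.141 on the log2 scale (limma adjusted p = 1 and 0.935). Without SM replicate 1 the first value was 0.04.

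Slc6a3 was 1.97, 1.98 and 1.99 FPKM in SF and 1.84, 2.64 and 1.92 in SM. It was 1.67, 1.87 and 2.11 in CF and 2.43, 2.22 and 2.33 in CM. The CM libraries lay above the CF libraries, and 1 SM library was the highest of the 12. SF minus SM was -0.07 ± 0.116 and CF minus CM -0.25 ± 0.116 (unadjusted p = 0.0513 and adjusted p = 0.868 in limma for the latter).

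Slc18a2 was 1.42, 2.03 and 1.55 FPKM in SF, 1.61, 2.19 and 2.00 in SM, 2.19, 1.67 and 1.97 in CF and 1.65, 1.75 and 2.18 in CM. The 4 groups overlapped. Its log2 difference was -0.17 ± 0.138 for SF minus SM and 0.05 ± 0.138 for CF minus CM (limma adjusted p = 1 and 0.975).

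Nr4a2 was 1.54, 1.37 and 2.38 FPKM in SF, 1.67, 1.95 and 1.74 in SM, 1.88, 1.34 and 2.19 in CF and 1.86, 1.04 and 2.06 in CM. Replicates of 1 group spread more widely than the group means differed, from 1.65 in CM to 1.80 in CF. SF minus SM was -0.04 ± 0.206 and CF minus CM 0.11 ± 0.206 (limma adjusted p = 1 and 0.961).

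Sex-combined minus sex-separated was -0.07 for Th, 0.10 for Ddc, 0.03 for Slc6a3, 0.07 for Slc18a2 and -0.04 for Nr4a2 on the log2 scale, with 95% intervals of 0.18 to 0.31 to either side and a limma adjusted p of 1 for each. The interactions ranged from -0.22 (Slc18a2) to 0.34 (Ddc), with intervals of 0.36 to 0.63 to either side and a limma adjusted p of 0.999 for each. Changes smaller than these intervals could not be told from 0 with 3 pools a group.

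**Figure D3:**
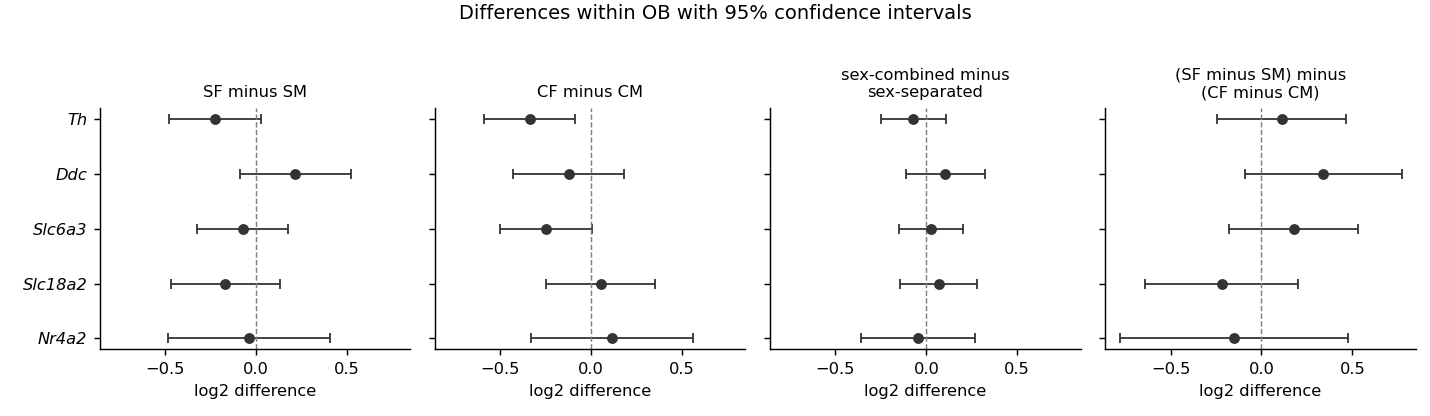
Log2 differences of the 5 genes within OB from limma on log2(FPKM + 0.5), as points with 95% confidence intervals, in 4 panels for the 2 sex comparisons, the housing comparison and the interaction. The interval of Th in CF minus CM lies left of 0, and after adjustment over 12774 genes no member passed.

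Th is known to follow sensory input, so the levels of sensory neuron transcripts in the same OB libraries are given beside it. Omp, a marker of mature olfactory sensory neurons, whose axons end in the bulb, was 29.8, 30.9 and 27.6 FPKM in CF and 37.9, 34.2 and 42.7 in CM. CF lay wholly below CM for Omp, as for 7.12% of all genes tested in OB. In SF it was 36.7, 33.5 and 33.5, and in SM 39.4, 39.0 and 36.1. CF minus CM was -0.37 ± 0.0994 for Omp, -0.41 ± 0.139 for Cnga2, a channel subunit of odor transduction, and -0.38 ± 0.0970 for Ano2, the chloride channel of the same cascade (limma adjusted p = 0.626, 0.835 and 0.587). The other two genes of the list that were tested, Adcy3 and Gnal, which also act in odor transduction, gave -0.16 ± 0.0898 and 0.11 ± 0.139 (limma adjusted p = 0.871 and 0.942). Of the 5 genes tested, 3 had an unadjusted p under 0.05 in limma, 0 passed and the median was -0.37. The sum of 6 olfactory sensory neuron genes was 38.0 to 42.1 FPKM in CF, 45.9 to 55.6 in CM, 45.3 to 47.2 in SF and 47.7 to 51.2 in SM, and Omp alone made up most of it (mean 29.4 FPKM in CF and 38.2 in CM). For 6 bulb interneuron genes the sums overlapped, at 535 to 629 in CF, 567 to 666 in CM, 516 to 644 in SF and 575 to 684 in SM. In MOE, the 6 olfactory sensory neuron genes had a median of 0.16 for CF minus CM (0.056 to 0.19), beside 0.10 over all genes. Of these 6, 0 passed there and 0 had an unadjusted p under 0.05 in limma. Levels of red blood cell genes in the OB libraries are given too. Of 4 erythroid genes listed, 3 were found in OB, and their sum was 134 to 203 FPKM in CF and 2.04 to 104 in CM, beside 51.3 to 151 in SF and 72.8 to 162 in SM. CF minus CM was 3.35 for Hba-a1, 3.14 for Hbb-b1 and 0.39 for Alas2 on the log2 scale, with an unadjusted p under 0.05 for 3 of 3 and a limma adjusted p of 0.693, 0.868 and 0.868. Hba-a1 and Hbb-b1 were both listed at 0 in at least 1 CM library. The part of sensory neuron and blood RNA in the Th values was not tested.

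Over the 12 OB libraries, Pearson's r was computed for the 10 pairs of members. Th and Slc6a3 had the highest, r = 0.65 (n = 12; permutation p = 0.0207, adjusted over the 10 pairs 0.207), with a Spearman rho of 0.52 (permutation p = 0.0896, adjusted 0.829). Without the 2 libraries farthest from the median of Th, r was 0.48. The other 9 pairs ranged from -0.27 for Th and Nr4a2 to 0.21 for Slc18a2 and Nr4a2, with an adjusted permutation p of 0.710 each, and none passed the correction.

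**Figure D4:**
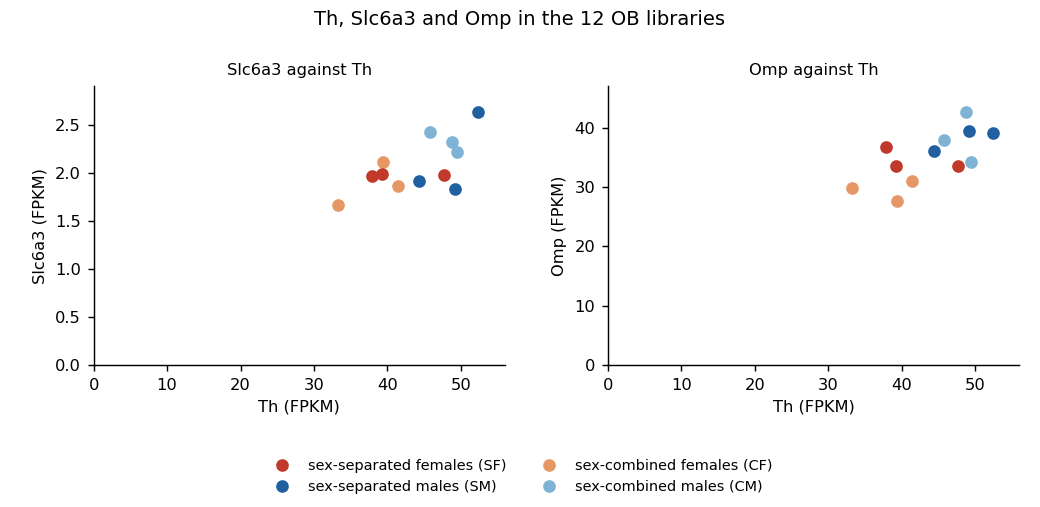
Slc6a3 (left) and Omp (right) against Th, all in FPKM on axes that start at 0, with each of the 12 OB libraries as a point colored by group. The CF libraries are at the low end of Omp, and the 6 male libraries hold the upper range of Th, from 44.4 to 52.4 FPKM, together with 1 SF library at 47.7.

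The genes most similar to Th over the 12 OB libraries, among 11433 genes with a mean of at least 1 FPKM, were Aptx (r = 0.96), Ric8a (r = 0.95) and 1110032F04Rik (r = 0.95). In all, 441 genes had an r of at least 0.80 with Th, and 0 genes had an r of -0.80 or lower. Omp, at r = 0.66, ranked 1903rd. For Nr4a2 the most similar were Acan (r = 0.90), Fosb (r = 0.88) and Zfp598 (r = 0.88). An r of -0.80 or lower was reached by 11 genes and an r of 0.80 by 20. The immediate early gene Egr1 followed at r = 0.80 as the 21st, and the related receptors Nr4a3 and Nr4a1 had r = 0.66 and 0.62. With Th, these 3 genes had r = -0.43, -0.44 and -0.39. All of these points share the same libraries and their depth, and the correlations are a description.

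In the epithelia there was little to compare between groups. None of the 5 members reached the mean of 0.5 FPKM needed for the test within MOE, and only Slc18a2 and Nr4a2 reached it within VNO. Slc18a2 in VNO was 0.808, 1.31 and 1.41 FPKM in SF, 0.974, 1.25 and 1.46 in SM, 1.60, 1.39 and 1.57 in CF and 0.991, 1.37 and 1.17 in CM. All 3 CF libraries lay above the CM libraries, as for 5.45% of all genes tested in VNO, and SF and SM overlapped. CF minus CM was 0.27 ± 0.155 and SF minus SM -0.05 ± 0.155 on the log2 scale (limma adjusted p = 1 and 0.926).

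Nr4a2 in VNO averaged 0.810 ± 0.0595 FPKM in SF, 1.05 ± 0.251 in SM, 0.882 ± 0.167 in CF and 0.913 ± 0.217 in CM (SD, n = 3), with overlap between the sexes under both housings. SF minus SM was -0.23 ± 0.153 and CF minus CM -0.03 ± 0.153 (limma adjusted p = 0.646 and 1). Neither gene passed in any VNO comparison, and no unadjusted p of theirs was under 0.05 in limma. The shares of all genes called in VNO were 0.0724% for SF minus SM, 0.0434% for CF minus CM, and 0% for the interaction and 0% for the housings.

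Genes around the pathway did not all share the pattern of the members. Of the 8 cofactor and enzyme genes, 6 were tested between the tissues. In OB, 2 were higher and 4 lower than in MOE (median log2 difference -0.80), beside 5740 higher and 6670 lower of all 14596 genes. Qdpr, which regenerates the tetrahydrobiopterin that Th needs, was the most abundant in OB at 43.1 FPKM (21.7 in MOE and 11.9 in VNO), followed by Pts (9.22; 16.3 in MOE), Spr (7.70; 15.0) and Pcbd1 (2.30; 0.737). Gch1, the first enzyme of tetrahydrobiopterin synthesis, averaged 0.715 FPKM in OB, 1.22 in VNO and 1.65 in MOE. Its feedback regulator Gchfr averaged 0.688 FPKM in OB against 3.36 in VNO and 31.5 in MOE, 45.9 times as much in MOE as in OB. Dbh and Pnmt, which turn dopamine into noradrenaline and adrenaline, averaged 0.0576 and 0.283 FPKM in OB.

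Among the genes of dopamine breakdown, Aldh2 and Aldh1a1, aldehyde dehydrogenases, were 14.7 and 12.1 FPKM in OB against 72.7 and 125 in MOE. Maoa, the monoamine oxidase, was 4.77 in OB and 3.97 in MOE, and its relative Maob was 3.00 in OB and 14.9 in MOE.

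Of the dopamine receptors only Drd2 was high enough to be tested between the tissues. It averaged 4.14 FPKM in MOE, 0.165 in OB and 0.09995 in VNO, 25.03 times as much in MOE as in OB (OB minus MOE -2.80 on the log2 scale, past the threshold). Drd2 is known as the receptor on the axon terminals of olfactory sensory neurons, whose cell bodies lie in MOE. Drd1 averaged 0.966 FPKM in OB and Drd5 0.354, and neither exceeded a mean of 0.115 in the epithelia. Among the other amine transporters, Slc29a4 was the highest in OB at 0.619 FPKM, and Slc6a4, the serotonin transporter, averaged 0.0486 there.

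**Figure D5:**
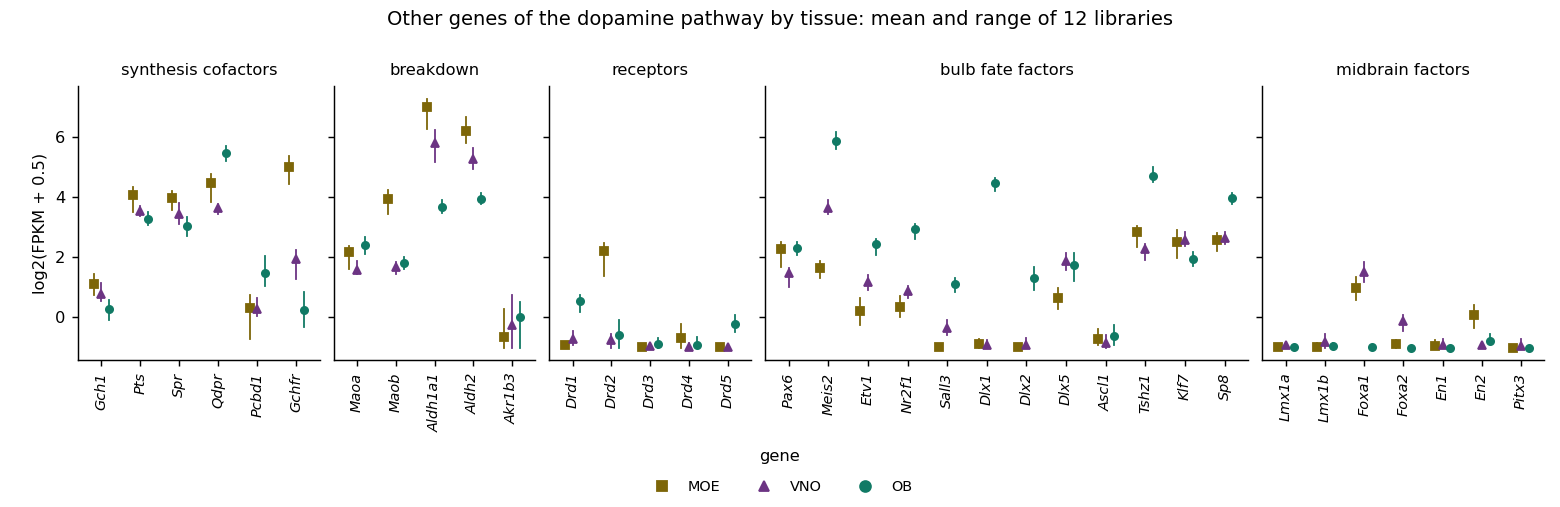
Mean (symbol) and range (line) of log2(FPKM + 0.5) over the 12 libraries of each tissue, for genes from 5 lists around the dopamine pathway. Drd2 and Gchfr are highest in MOE, and Meis2, Tshz1, Dlx1 and Sp8 are highest in OB.

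Of 12 fate factors of bulb dopamine neurons, 11 were tested between the tissues. In OB, 9 were higher and 1 lower than in MOE, with a median log2 difference of 2.06, where 39.3% of all genes were higher. Meis2 averaged 57.2 FPKM in OB, Tshz1 25.3, Dlx1 21.5 and Sp8 14.9. Pax6, needed for the same cells, did not pass between OB and MOE (4.47 and 4.29 FPKM; limma adjusted p = 0.368) and was lower in VNO (2.28). The midbrain factors were at or near 0 in OB: Foxa2, En1 and Pitx3 were listed at 0 in all 12 libraries, Lmx1a averaged 0.00376 FPKM, Lmx1b 0.0172 and En2 0.0806. Foxa1 was the only one of these 7 to be tested between the tissues, and it was lower in OB than in MOE and in VNO.

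The other immediate early genes, with Nr4a1 and Nr4a3, were higher in the same tissue as Nr4a2: all 10 were higher in OB than in MOE and than in VNO, with medians of 2.15 and 1.48 on the log2 scale. The shares of all genes higher in OB were 39.3% against MOE and 48% against VNO. Junb averaged 30.7 FPKM in OB, Arc 24.1, Fos 13.1 and Nr4a1 12.7. Of 6 GABA and periglomerular interneuron genes, 5 were higher and 1 lower in OB than in MOE, where 39.3% of all genes were higher. Gad1, which makes GABA in these cells, averaged 180 FPKM in OB, followed by Calb2 (144), Slc32a1 (21.9) and Gad2 (15.6), and Calb2 was higher still in VNO (177).

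Within OB, 41 genes of these lists were tested in limma and 0 passed in a sex, housing or interaction comparison. Their unadjusted p was under 0.05 for 6 genes in SF minus SM, 2 in CF minus CM, 2 between the housings and 8 in the interaction. Over all 12774 genes tested in OB, the same holds for 4.59%, 5.68%, 2.27% and 4.13%. Within MOE, 0 of 28 passed, with up to 4 genes per comparison at an unadjusted p under 0.05 in limma, beside 1.76% to 4.62% of all genes. The 11 fate factors tested in OB had a median of -0.17 for SF minus SM, 3 of them with an unadjusted p under 0.05, beside a median of -0.07 over all genes. Their medians were 0.11 for CF minus CM and -0.29 for the interaction, where 5 of 11 had an unadjusted p under 0.05 and the largest difference was -0.72 for Dlx5 (limma adjusted p = 0.999), beside medians of -0.03 and -0.03 over all genes. The interaction was 0.11 for Th, 0.34 for Ddc, 0.18 for Slc6a3, -0.22 for Slc18a2 and -0.15 for Nr4a2, none of which passed.

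In VNO, 2 of 30 genes passed in SF minus SM, both lower in females than in males. Gad1 was 0.936, 0.799 and 0.550 FPKM in SF and 1.76, 1.85 and 1.70 in SM (-0.86 ± 0.126 on the log2 scale; limma adjusted p = 0.0298), and Egr1 was 2.16, 1.36 and 1.44 in SF and 3.48, 3.79 and 3.29 in SM (-0.92 ± 0.133; limma adjusted p = 0.0289). Nr4a2, which is a member, differed in the same direction there without passing, by -0.23. In CF, Gad1 was 1.18, 1.23 and 1.03 FPKM and in CM 1.63, 2.09 and 1.58. Egr1 was instead higher in the sex-combined females, at 2.82, 2.57 and 2.97 in CF and 2.17, 2.03 and 2.67 in CM, with overlap. In CF minus CM, 0 of 30 genes passed. Over both housings 1 of 30 passed, Gad1 at -0.66 on the log2 scale, beside 6 higher and 11 lower of all 13817 genes. Over all genes, SF minus SM had a median of -0.08 in VNO, and 8.82% had an unadjusted p under 0.05 in limma. The summed level of 3 plasma and B cell genes was 3.29 to 6.95 FPKM in SF and 16.6 to 39.9 in SM, with Jchain, which joins immunoglobulin subunits, at -2.24 on the log2 scale for SF minus SM (limma adjusted p = 0.116). The 6 olfactory sensory neuron genes had a median of -0.34 and the lowest value for Cnga2 (-1.18; limma adjusted p = 0.327), with 3 of 6 at an unadjusted p under 0.05 and 0 called, and their sums overlapped, at 96.2 to 116 FPKM in SF and 109 to 140 in SM. Omp averaged 101 FPKM over the VNO libraries and made up most of the olfactory sensory neuron sums. The other genes of that list averaged 1.65 (Gnal) to 6.95 (Ano2) in VNO, with Cnga2 at 2.18. The sums in VNO thus mainly give the level of Omp and cannot place it in a cell type. The 3 erythroid genes summed to 178 to 490 FPKM in SF and 488 to 526 in SM. The part of these cells in the Gad1 and Egr1 values was not tested.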

How the data were processed

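RNA-seq was made from 36 pools (3 tissues, 4 groups, 3 replicates) as stranded total RNA libraries without ribosomal RNA. The authors merged 2 lanes and deposited FPKM with confidence limits for each RefSeq transcript on mm9, made, per the submitters' processing notes, with TopHat2 2.1.0 and Cufflinks 2.2.1.0; other options are not given in the sources used here. The FPKM had no further scaling. RefSeq accessions named 99.38% of the entries, and FPKM were summed by gene. Genes with a failed entry were left out (5 in MOE, 1 in VNO and 1 in OB). Fragments were estimated by dividing FPKM by the standard error that the 95% limits imply and squaring the result, and the floor was 3 fragments. These estimates reflect the error of each FPKM and not the spread between pools. The reads carried no molecular identifiers and need not be independent molecules. The estimates are not counts: for Ddc, with 2 entries, they fell to 0.493 at an FPKM above 0, less than a single fragment. They can therefore understate the fragments of genes with several entries, and more libraries are then listed under the floor.

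Comparisons used the lmFit and trended eBayes functions of limma 3.58.1 (R 4.3.3) on log2(FPKM + 0.5) for genes with a mean of at least 0.5 FPKM, in 1 fit over 36 libraries for the tissues and 1 fit per tissue for sex and housing. This scale understates changes of low genes. After a ± sign stands the SE for log2 differences and the SD for FPKM. The p-values measure the spread between pools. Correlations used two-sided permutation tests with 100000 resamples (Python 3.11.15, numpy 2.4.6, pandas 2.3.3, scipy 1.17.1), and figures matplotlib 3.10.9. limma was also run on simulated data. Builds were not mixed: loci are mm9 and promoters GRCm38.p6. The members and lists were chosen with earlier results of these data known. Named were the 5 members, list genes that passed within a tissue, up to 4 per list by mean FPKM in OB, and the 3 genes most similar to Th and to Nr4a2; other genes were named after their values were seen. The values of 2 listed genes are not reported here. Alternatives were pseudocounts of 0.1 and 1, no filter, upper quartile scaling, quantile normalization, library weights, a replicate block, fits on the 6 libraries of a sex comparison alone, and leaving out each library in turn; the sex difference over both housings and the fit without MOE-CF replicate 1 were chosen after seeing the data.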

Additional observations from a re-analysis of the deposited data

How the results depend on the processing

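The tissue differences of the 5 genes kept their direction and their side of the threshold in 641 of 645 values. These came from 43 alternative fits, each giving values for every gene and comparison, so they are not independent. The within-tissue differences did so in 640 of 679 values, which share fits in the same way. All 5 genes were called in OB against both other tissues, under each alternative run. In VNO against MOE, 3 were called under each alternative run except a pseudocount of 0.1, which called 4. In OB, CF minus CM called 1 of the 5 genes with library weights instead of 0 (Th), and females minus males over both housings called 2 (Th at -0.28, Nr4a2 at 0.40; limma adjusted p = 0.0123 and 0.0434); over all genes the same weights raised the calls from 6 to 682 and from 8 to 1860, and the cause was not tested. The gene added in VNO minus MOE with that pseudocount was Slc6a3 (-0.21; limma adjusted p = 0.0258), where no library reached the floor of 3 fragments.

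Values near 0 changed sign without passing. After upper quartile scaling this held for Ddc in VNO minus MOE (0.00258), Slc18a2 in VNO SF minus SM (0.00512), Nr4a2 in OB SF minus SM (0.021), and r of Th and Slc18a2 (-0.32), Ddc and Slc18a2 (-0.011) and Slc6a3 and Slc18a2 (-0.059). After quantile normalization it held for Ddc in VNO minus MOE (0.0099), Slc6a3 (0.0022) and Nr4a2 (0.036) in OB SF minus SM. With library weights it held for Slc18a2 in VNO SF minus SM (0.021), Slc6a3 (0.011) and Nr4a2 (0.26) in OB SF minus SM, Th (0.0097) and Ddc (-0.031) in OB sex-combined minus sex-separated, and Ddc over both housings (-0.059). Without the 2 libraries farthest from the median, r was -0.25 for Ddc and Slc6a3, -0.12 for Ddc and Slc18a2 and -0.032 for Slc6a3 and Nr4a2.

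With each library left out in turn, signs also changed for Ddc in VNO minus MOE (-0.064 to 0.0022), for Slc18a2 in VNO SF minus SM (-0.16 to 0.12), for Nr4a2 in VNO CF minus CM (-0.15 to 0.076) and sex-combined minus sex-separated (-0.090 to 0.030), for Slc6a3 (-0.15 to 0.060) and Nr4a2 (-0.22 to 0.086) in OB SF minus SM, for Slc18a2 (-0.021 to 0.14) and Nr4a2 (-0.11 to 0.27) in OB CF minus CM, for Nr4a2 in the OB interaction (-0.34 to 0.073), for Slc6a3 (-0.015 to 0.092) and Nr4a2 (-0.11 to 0.069) in OB sex-combined minus sex-separated, and for Ddc (-0.042 to 0.11) and Nr4a2 (-0.074 to 0.12) over both housings. Th in OB CF minus CM ranged from -0.40 to -0.25.

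Replicate numbers were checked as a pairing. Deviations of like-numbered libraries correlated between -0.14 and 0.27 within a tissue, and those of like-named pools between -0.24 and 0.16 across tissues. No unlike-numbered pairs were set beside them, so these values cannot show whether like-numbered pools share mice or a batch. With the number as a replicate block, the calls were as before, 5 in OB minus MOE, 5 in OB minus VNO, 3 in VNO minus MOE and 0 within tissues, and the calls over all genes in OB were 5, 7, 1 and 1 for SF minus SM, CF minus CM, the interaction and the housings. Depth limits the epithelia, where Th, Ddc and Slc6a3 lay mostly under 3 estimated fragments.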
